A study of Mus musculus with 9 samples.

Results

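The core circadian clock loop is the set of 10 genes whose transcripts were followed here across sorted skin cells of Flg ko/ko and Flg wt/wt mice. Members were taken as the rows of the deposited count table whose Ensembl identifier maps to Arntl (also named Bmal1), Clock, Npas2, Per1, Per2, Per3, Cry1, Cry2, Nr1d1 and Nr1d2. All 10 were found among the 49671 gene rows, and all 10 had enough counts to be tested. The rule names the genes by symbol, but the set was chosen by someone who had seen the ko/ko against wt/wt values of these libraries, CPM and fold changes included. The genotype values below are therefore a description of these libraries.

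In the mammalian clock, ARNTL pairs with CLOCK or with its relative NPAS2 and activates genes that carry E-box elements, among them the Per, Cry and Nr1d genes. PER and CRY proteins accumulate and repress that activator, which closes the loop each day. NR1D1 and NR1D2, the REV-ERB nuclear receptors, form a second arm that represses Arntl. Epidermal and dermal cells carry this clock, and the transcript levels of most members vary over the day.

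The study compared 4 ko/ko with 5 wt/wt libraries, and Flg is the gene of filaggrin, a protein of the outermost, cornified epidermis. Each library is RNA of skin cells sorted as negative for the leukocyte protein CD45 and positive for the integrin CD49f, amplified with SMARTseq2. The sources used here give neither the kind of ko allele nor strain, age, sex or the hour of collection. Hour of collection and genotype therefore cannot be told apart. Library identifiers of the genotypes also form separate runs of numbers, so any batch that follows them cannot be told apart from genotype either.

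Library totals ran from 15601859 to 23200440 counts. Flg had 2, 0, 0 and 4 counts in the ko/ko libraries and 0, 0, 6, 2 and 4 counts in the wt/wt libraries, too few to check the genotype labels. The epidermal label was checked with defining markers. Krt14, the basal keratin, had 890 to 1561 CPM (counts scaled by library size) in ko/ko and 858 to 1834 CPM in wt/wt. Summed CPM of 6 basal keratinocyte markers, Krt14 included, was 1539 to 2429 in ko/ko and 1330 to 2901 in wt/wt. Of these markers, 5 of 6 were higher on average in ko/ko. Among them the integrin gene Itga6 averaged 83.0 ± 14.6 CPM (SD, n = 4) in ko/ko and 53.4 ± 9.04 CPM (SD, n = 5) in wt/wt. Dcn, a fibroblast proteoglycan, had 12986 to 21870 CPM in ko/ko and 10868 to 20010 CPM in wt/wt, above Krt14 in every library. Summed CPM of 7 fibroblast markers, Dcn included, was 35166 to 60984 in ko/ko and 26737 to 61720 in wt/wt, with 5 of 7 higher on average in ko/ko. That sum was above the basal keratinocyte sum in every library, so fibroblast marker transcripts outweighed basal keratinocyte ones. The clock values are thus those of a mixed population, in which fewer cells of a type and less RNA per cell cannot be told apart. Summed CPM of 7 myeloid markers was 4.60 to 214 in ko/ko and 3.05 to 27.9 in wt/wt, with 7 of 7 higher on average in ko/ko. Summed CPM of 3 lymphatic endothelial markers was 64.2 to 77.2 in ko/ko and 113 to 297 in wt/wt, with 0 of 3 higher in ko/ko. Summed CPM of 3 T cell markers was 3.18 to 6.51 in ko/ko and 0.356 to 3.51 in wt/wt, with 3 of 3 higher in ko/ko. Summed CPM of 4 hair matrix markers was 7.03 to 14.3 in ko/ko and 11.6 to 135 in wt/wt, and that of 3 mural cell markers 95.9 to 200 in ko/ko and 41.5 to 264 in wt/wt, with 0 of 4 and 0 of 3 higher in ko/ko. None of the markers in these lists was at 0 in all libraries. The part of these cell types in the clock values was not tested.

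Promoter sequence close to annotated starts was searched for the E-box named above and for other motifs. RefSeq windows of build GRCm38.p6, which has the coordinates of mm10, matched 9 of the 10 members (all but Per2), in 13 windows of 300 bases that run from 250 bases before to 50 after an annotated start. Both strands were searched for the E-box CACGTG, a variant E-box CACGTT, the D-box forms TTATGTAA and TTACGTAA, the receptor core motif AGGTCA bound by REV-ERB receptors, and the cAMP response element TGACGTCA. These motifs do not contain one another. The windows of Cry1 and Cry2 are shown because these were the 2 members whose genotypes did not overlap, and Arntl because it is the activator. Per1 is shown because it followed Arntl most closely, and Per3 because it held the D-box. Capitals mark every match, read 5′ to 3′ on the strand of the gene, so a match on the other strand appears as its reverse complement.
Cry1, chr10:85185005-85185304, minus strand: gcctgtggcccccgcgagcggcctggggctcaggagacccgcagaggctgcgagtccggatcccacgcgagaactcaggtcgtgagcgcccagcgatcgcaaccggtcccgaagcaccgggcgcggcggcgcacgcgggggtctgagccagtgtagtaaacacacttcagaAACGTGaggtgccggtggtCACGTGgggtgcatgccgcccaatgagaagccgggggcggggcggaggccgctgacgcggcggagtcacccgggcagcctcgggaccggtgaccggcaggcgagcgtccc
Cry2, chr2:92434020-92434319, minus strand: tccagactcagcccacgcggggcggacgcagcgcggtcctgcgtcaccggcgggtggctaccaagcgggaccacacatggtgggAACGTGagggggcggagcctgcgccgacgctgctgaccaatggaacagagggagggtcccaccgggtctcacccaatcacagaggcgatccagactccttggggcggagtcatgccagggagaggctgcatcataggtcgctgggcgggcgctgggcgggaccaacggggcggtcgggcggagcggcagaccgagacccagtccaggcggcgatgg
Arntl, chr7:113207261-113207560, plus strand: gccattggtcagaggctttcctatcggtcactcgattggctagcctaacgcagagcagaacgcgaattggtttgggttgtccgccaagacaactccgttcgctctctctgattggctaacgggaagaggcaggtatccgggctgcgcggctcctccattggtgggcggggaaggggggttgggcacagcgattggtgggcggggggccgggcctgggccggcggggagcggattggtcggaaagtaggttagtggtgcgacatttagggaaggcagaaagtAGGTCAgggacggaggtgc
Per1, chr11:69098699-69098998, plus strand: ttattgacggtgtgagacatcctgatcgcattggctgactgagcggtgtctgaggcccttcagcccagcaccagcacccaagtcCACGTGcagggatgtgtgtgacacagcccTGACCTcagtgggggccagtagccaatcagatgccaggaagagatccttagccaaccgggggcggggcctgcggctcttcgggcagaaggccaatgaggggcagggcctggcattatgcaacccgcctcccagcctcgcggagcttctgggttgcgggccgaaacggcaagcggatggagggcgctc
Per3, chr4:151044616-151044915, minus strand: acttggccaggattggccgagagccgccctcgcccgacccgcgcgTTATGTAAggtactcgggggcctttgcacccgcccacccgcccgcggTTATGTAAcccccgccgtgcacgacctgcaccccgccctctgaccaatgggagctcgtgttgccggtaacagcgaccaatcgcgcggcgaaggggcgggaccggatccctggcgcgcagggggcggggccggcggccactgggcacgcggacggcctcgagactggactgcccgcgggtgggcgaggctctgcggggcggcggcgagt

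The E-box CACGTG was in 2 of 13 member windows, at -60 from the start in Cry1 and at -166 in Per1. It was in 7.15% of all 32851 windows. The variant E-box was in 3 member windows, those of Cry1 (-79), Cry2 (-166) and Nr1d1 (-28), against 4.68% of all windows. Per3 held the D-box TTATGTAA at -205 and at -158, and this form was in 0.938% of all windows. The form TTACGTAA (0.119% of all windows) and the cAMP response element (1.79%) were in 0 of 13 member windows. The core motif AGGTCA was in 4 member windows, at position 32 after the downstream start of Arntl, at -119 of a Clock start, at -137 of Per1 and at -77 of Nr1d2, against 16.3% of all windows. These matches describe the letters of the windows, and binding was not measured. Sequence outside the windows was not searched, so a motif absent from them may still lie elsewhere in a gene.

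Levels were compared between genes as CPM per kilobase of exon, averaged over the 9 libraries. Nr1d1 stood first at 80.3, above every other member in 9 of 9 libraries. Cry2 at 24.0, Nr1d2 at 21.8 and Cry1 at 19.5 came next. Their order was not fixed, since Cry2 exceeded Nr1d2 in 5 of 9 libraries and Nr1d2 exceeded Cry1 in 5 of 9. It differed between the genotypes. In ko/ko the means of Cry2, Nr1d2 and Cry1 were 16.2, 23.9 and 15.3, and in wt/wt 30.3, 20.1 and 22.9. Every wt/wt library had Cry2 (at least 24.5) above Nr1d2 (at most 22.5). Cry1 lay above Arntl (8.09) in 9 of 9 libraries. Arntl, Per2 (6.20), Per1 (4.28) and Per3 (4.08) formed a lower tier in which each exceeded the next in 5 or 6 of 9 libraries. Clock at 2.81 and Npas2 at 2.18 were lowest, and Clock exceeded Npas2 in 7 of 9. On this scale the mean levels of the repressor transcripts Nr1d1, Cry2, Nr1d2 and Cry1 were all higher than that of any activator transcript. Those of the repressor transcripts Per2, Per1 and Per3 were lower than that of Arntl and higher than those of Clock and Npas2. This order is that of the mean over all libraries. In wt/wt the mean of Per2 (7.45) was above that of Arntl (6.39), and in ko/ko it was below (4.63 and 10.2).

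**Figure D1:**
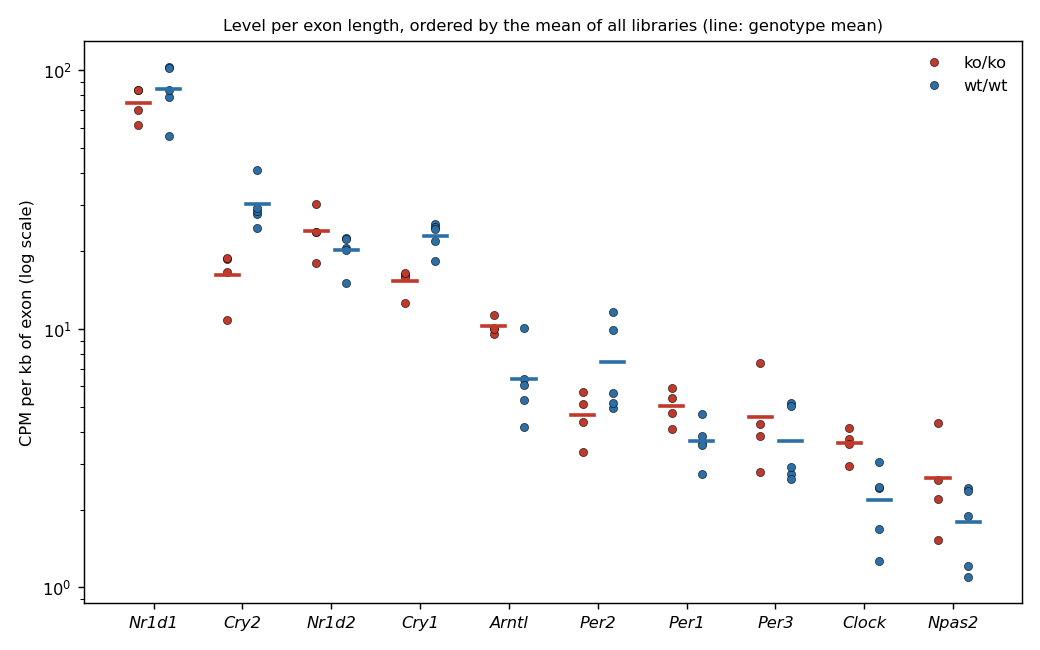
CPM per kilobase of exon on a log axis for the 10 members, ordered by the mean of all libraries. Points are libraries of ko/ko (red) and wt/wt (blue), and lines are genotype means; Nr1d1, at 80.3 over all libraries, stands above the rest, and Clock (2.81) and Npas2 (2.18) are lowest.

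Between genotypes, the activators Arntl and Clock had higher values in ko/ko and the repressors Cry1 and Cry2 lower ones. The other repressors did not share a direction. Per1, Per3 and Nr1d2 had positive log2 fold changes (ko/ko over wt/wt) of 0.44, 0.31 and 0.25. Per2 (-0.69) and Nr1d1 (-0.18) had negative ones. The activator Npas2 had 0.57. Of the 10 members, 0 were called higher and 0 lower at an adjusted p under 0.05 in edgeR (quasi-likelihood test, adjustment over all 18435 genes), a threshold that 0.00542% of genes passed as higher and 0% as lower. The members' edgeR adjusted p-values ran from 0.131 to 0.698. At an unadjusted p under 0.05 the test counted 3 members higher (Arntl, Clock, Per1) and 3 lower (Per2, Cry1, Cry2), where 8.86% of all genes were higher and 6.42% lower. DESeq2 called Cry1 and Cry2 lower and 0 members higher (1.11% of genes lower and 2.53% higher). Limma voom with quality weights called the same pair lower and Arntl and Clock higher (3.17% of genes lower and 6.6% higher). The median log2 fold change, ko/ko over wt/wt, was 0.28 over the members and -0.03 over all tested genes, with 6 members positive and 4 negative. Because the set was chosen with this contrast known, nothing is read from these counts.

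**Figure D2:**
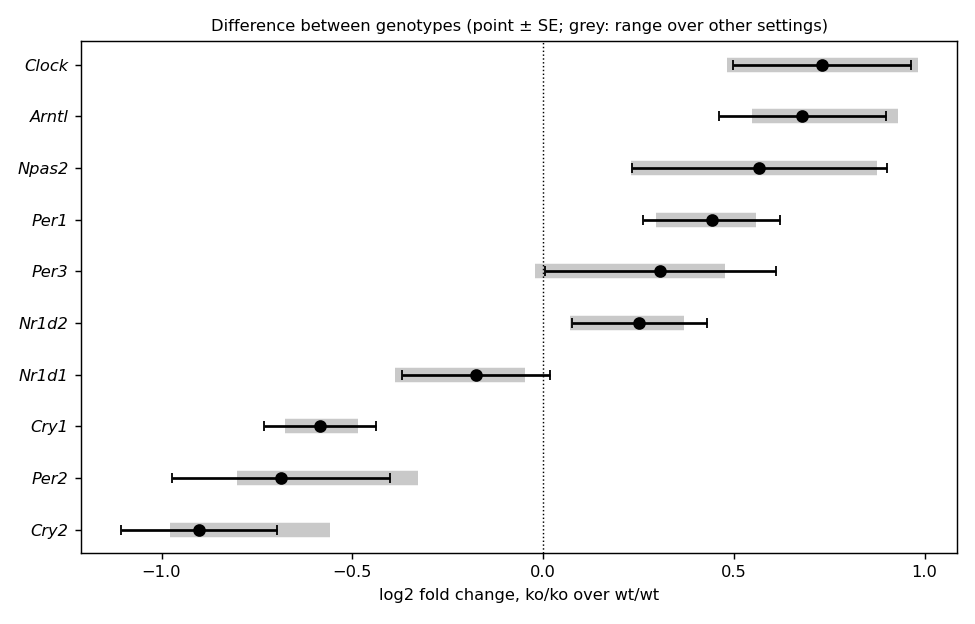
Log2 fold change of each member, ko/ko over wt/wt, as point and standard error (SE) from edgeR, with a grey band for the range over 18 other settings. Clock (0.73) and Arntl (0.68) lie at the positive end, and Cry2 (-0.90), Per2 (-0.69) and Cry1 (-0.59) at the negative end.

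Arntl (ENSMUSG00000055116, mm10 chr7:113207465-113314126, plus strand) encodes the activator subunit that the loop cannot do without. It had 75.8, 71.9, 85.3 and 74.8 CPM in ko/ko replicates 1 to 4, against 75.5, 39.9, 48.0, 45.4 and 31.5 CPM in wt/wt replicates 1 to 5. The ko/ko libraries lay within a narrow band, and wt/wt replicate 1 fell inside it while the other 4 wt/wt libraries were below. Arntl averaged 76.9 ± 5.82 CPM (SD, n = 4) in ko/ko and 48.1 ± 16.6 CPM (SD, n = 5) in wt/wt, a log2 fold change of 0.68 (SE 0.22). Gm45355 shares 33 bases of Arntl exons on the opposite strand and had 0 to 2 counts in any library. Ube2n-ps1 and Gm43658 in Clock, Gm20428 and Gm3617 in Npas2 and Camta1 beside Per3 overlap the span of a member but share 0 exon bases with it.

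Clock (ENSMUSG00000029238, mm10 chr5:76209868-76304792, minus strand) encodes the usual partner of ARNTL. Its values were 51.6, 49.3, 56.8 and 40.4 CPM in ko/ko, against 41.8, 33.3, 33.7, 23.1 and 17.4 CPM in wt/wt. The groups overlapped only between ko/ko replicate 4 and wt/wt replicate 1. The log2 fold change was 0.73 (SE 0.23). Clock has the longest exon length of the set, 13727 bases, and after removal of length trends per library its log2 fold change was 0.48 and that of Arntl 0.55. The same removal gave 0.30 for Per1 and 0.10 for Per3, against 0.44 and 0.31 before it, and -0.34 for Nr1d1, against -0.18.

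Npas2 (ENSMUSG00000026077, mm10 chr1:39193731-39363236, plus strand) encodes a relative of CLOCK that can take its place beside ARNTL. It had 7.28, 10.5, 20.7 and 12.5 CPM in ko/ko, against 9.05, 5.24, 11.6, 11.3 and 5.79 CPM in wt/wt. The 2 ranges overlapped from 7.28 to 11.6 CPM, and ko/ko replicate 3 was the highest library. Its log2 fold change was 0.57 (SE 0.34), or 0.23 without ko/ko replicate 3.

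Cry2 and Cry1 encode the cryptochromes, the main repressors of the activator pair, and were the only members whose genotypes did not overlap, against 2.74% of all tested genes lower without overlap and 3.51% higher. Cry2 (ENSMUSG00000068742, mm10 chr2:92403646-92434043, minus strand) had 68.2, 118, 118 and 105 CPM in ko/ko, against 260, 155, 175, 180 and 186 CPM in wt/wt. The highest ko/ko library was below the lowest wt/wt library, ko/ko replicate 1 was lowest and wt/wt replicate 1 highest. Cry2 averaged 102 ± 23.6 CPM (SD, n = 4) in ko/ko and 191 ± 40.2 CPM (SD, n = 5) in wt/wt, a log2 fold change of -0.90 (SE 0.20). It was -0.56 without ko/ko replicates 1 and 4 and wt/wt replicate 1, the 3 libraries richest in reads of the predicted gene Gm10800. Antisense to it, D930015M05Rik shares 295 bases, 4.67% of the Cry2 exons, and had 2 to 20 counts in any library.

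Cry1 (ENSMUSG00000020038, mm10 chr10:85131700-85185064, minus strand) had 41.9, 54.1, 52.8 and 55.1 CPM in ko/ko, against 73.2, 84.6, 82.8, 61.2 and 80.8 CPM in wt/wt. Again every ko/ko library was below every wt/wt library. Its log2 fold change was -0.59 (SE 0.15). Within genotypes Cry1 varied least of the members, with a standard deviation of 0.19 on the log2 scale, lower than in all but 8.81% of tested genes, where the median gene had 0.40.

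Ratios of members within a library were formed for 3 pairs, and the genotypes did not overlap in 2 of them. Log2 CPM of Arntl minus log2 CPM of Cry2 was -0.72 to 0.15 in ko/ko and -2.56 to -1.78 in wt/wt. For Cry1 minus Clock the difference was -0.30 to 0.45 in ko/ko and 0.81 to 2.22 in wt/wt. For Arntl minus Nr1d1 it was -1.79 to -1.34 in ko/ko and -3.32 to -1.68 in wt/wt, and the genotypes overlapped. These ratios were formed after the values had been seen, so they are a description. Both pairs without overlap set a member seen higher in ko/ko (Arntl or Clock) against Cry2 or Cry1. Their separation was thus nearly fixed in advance, and the share of other gene pairs without overlap was not computed.

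**Figure D3:**
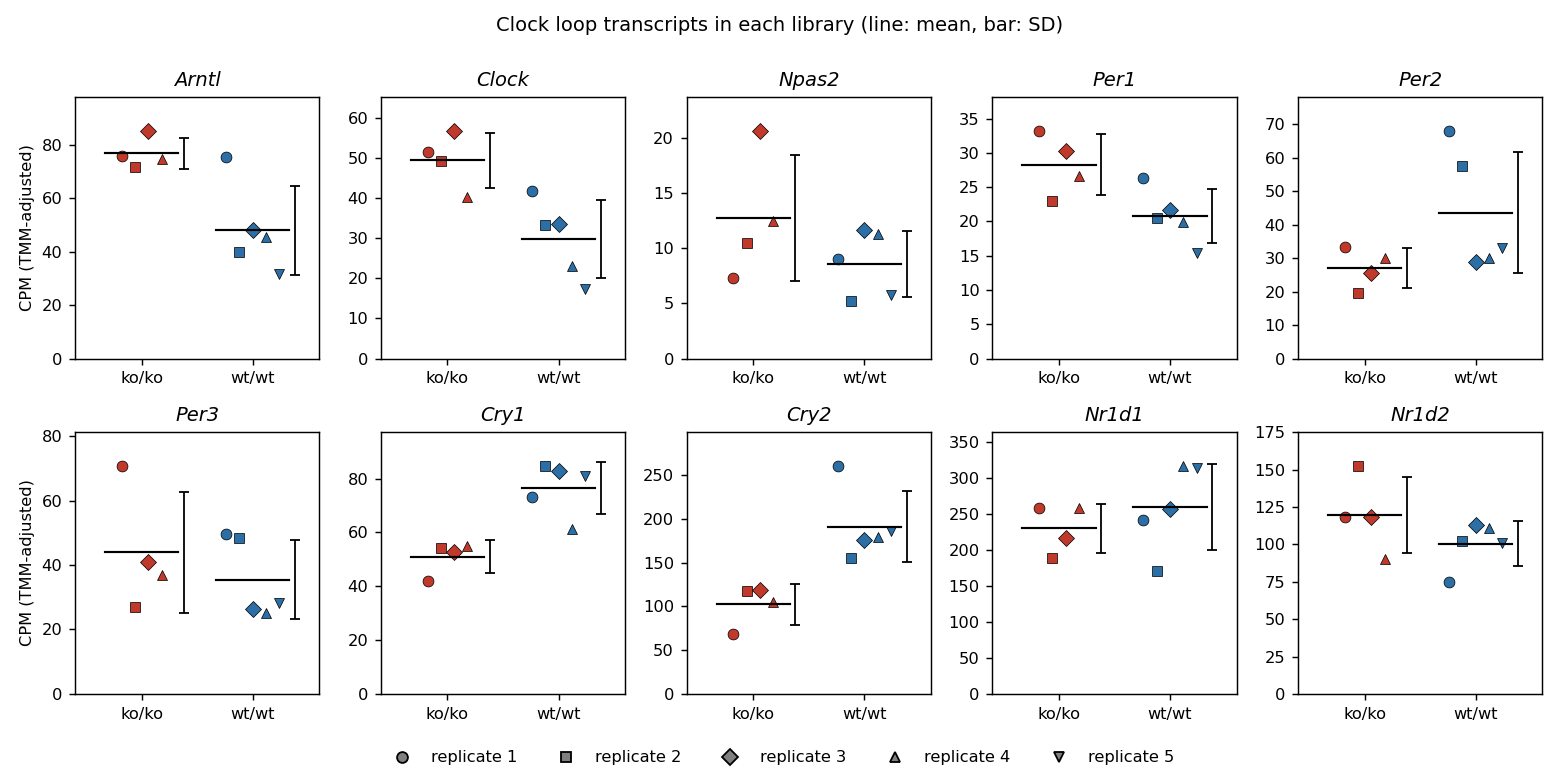
CPM with TMM-adjusted library sizes of the 10 members in each library, ko/ko (red) left of wt/wt (blue), with a marker shape for each replicate number, a line for the mean and a bar for the SD. Cry1 and Cry2 show no overlap, with ko/ko at most 55.1 and 118 CPM and wt/wt at least 61.2 and 155 CPM, and wt/wt replicate 1 lies with the ko/ko libraries for Arntl.

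The Per genes encode the partners of the cryptochromes and did not differ in a common direction. Per2 (ENSMUSG00000055866, mm10 chr1:91415982-91459324, minus strand) had 33.4, 19.5, 25.6 and 30.0 CPM in ko/ko, against 68.1, 57.7, 29.0, 30.1 and 33.2 CPM in wt/wt. Only wt/wt replicates 1 and 2 stood above the ko/ko range, and the other 3 lay within it. The log2 fold change was -0.69 (SE 0.29), and -0.33 with voom and quality weights.

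Per1 (ENSMUSG00000020893, mm10 chr11:69095217-69109960, plus strand) had 33.2, 23.0, 30.3 and 26.6 CPM in ko/ko, against 26.3, 20.6, 21.7, 20.0 and 15.5 CPM in wt/wt. The ranges overlapped through wt/wt replicate 1, the highest of its group, and the log2 fold change was 0.44 (SE 0.18).

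Per3 (ENSMUSG00000028957, mm10 chr4:151003652-151044665, minus strand) had 70.7, 26.9, 41.0 and 37.0 CPM in ko/ko, against 49.5, 48.3, 26.3, 25.1 and 28.1 CPM in wt/wt. Its groups overlapped widely. The log2 fold change was 0.31 (SE 0.30), and -0.02 without ko/ko replicate 1, so its direction rested on that library.

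Per2 and Per3 marked the same libraries within each genotype. Both were highest in ko/ko replicate 1 and lowest in ko/ko replicate 2 among ko/ko libraries, and both were highest in wt/wt replicates 1 and 2 among wt/wt libraries. Mitochondrially encoded genes took 6.30% of counts in ko/ko replicate 1 and 5.67% and 7.55% in wt/wt replicates 1 and 2. That share was 1.81% to 2.01% in the other ko/ko libraries and 4.38%, 6.08% and 2.77% in wt/wt replicates 3 to 5. The part of this share in the Per values was not tested.

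Nr1d1 (ENSMUSG00000020889, mm10 chr11:98767932-98775333, minus strand) encodes REV-ERB alpha. It had 258, 188, 217 and 258 CPM in ko/ko, against 242, 171, 257, 317 and 314 CPM in wt/wt. All ko/ko libraries lay within the wt/wt range, and the log2 fold change was -0.18 (SE 0.19). Thra, the thyroid hormone receptor gene on the opposite strand, shares 263 bases, 8.55% of the Nr1d1 exons, and the reads of the shared stretch cannot be told apart. Thra averaged 75.9 ± 4.55 CPM (SD, n = 4) in ko/ko and 44.9 ± 5.50 CPM (SD, n = 5) in wt/wt, and its log2 fold change was 0.76 (SE 0.13) with an edgeR adjusted p of 0.0951. DESeq2 (adjusted p = 5.8e-05) and voom with quality weights (adjusted p = 0.0107) called Thra higher, as they did 2.53% and 6.6% of all genes.

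Nr1d2 (ENSMUSG00000021775, mm10 chr14:18204054-18239127, minus strand) encodes REV-ERB beta. It had 118, 152, 118 and 90.0 CPM in ko/ko, against 75.2, 102, 113, 111 and 101 CPM in wt/wt. Its groups overlapped, ko/ko replicate 2 was the highest library and wt/wt replicate 1 the lowest. The log2 fold change was 0.25 (SE 0.18), 0.11 without ko/ko replicate 2 and 0.07 with voom and quality weights.

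Variation within genotypes does not use the genotype contrast. Npas2, Per3 and Per2 varied most, with standard deviations of 0.58, 0.53 and 0.49 on the log2 scale, against 0.40 for the median tested gene. Clock (0.40) was at that median and Arntl (0.36) near it. Cry2 (0.32), Nr1d1 (0.31), Nr1d2 (0.27) and Per1 (0.26) varied less.

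Relations of Arntl to the other 9 members were tested on log2 CPM with the genotype means subtracted, by an exact two-sided permutation within genotypes over 9 libraries, with adjustment over the 9 relations. Per1 followed Arntl most closely, with Pearson r = 0.82 (exact p = 0.0212, adjusted p = 0.191) and Spearman rho = 0.85 (exact p = 0.0104, adjusted p = 0.0938). For Clock the values were r = 0.79 (exact p = 0.0542, adjusted p = 0.244) and rho = 0.65 (exact p = 0.155, adjusted p = 0.465). Neither passed after adjustment. Before genotype means were subtracted, wt/wt replicates 5 and 2 were the 2 libraries farthest from the median of Arntl. Without them r was 0.69 for Per1 and 0.78 for Clock, and Per2 (0.84) followed Arntl more closely than either. Per3 had 0.64 and Nr1d2 -0.67 there. Without wt/wt replicate 2 alone r was 0.85 for Per1 and 0.90 for Clock. Which member followed Arntl most closely thus depended on the libraries kept. After subtraction Arntl lay farthest from its genotype mean in wt/wt replicates 1 (0.71) and 5 (-0.55). That pair was not left out together, so how far the relations rest on it was not tested. Without wt/wt replicate 1 alone r was 0.75 for Per1 and 0.70 for Clock. Without wt/wt replicate 5 alone r was 0.68 for Per1 and 0.61 for Clock.

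The repressors showed no relation to Arntl that passed. Pearson r was 0.52 for Cry2 (exact p = 0.138, adjusted p = 0.389), but 0.00 without wt/wt replicate 1. For Cry1 r was -0.22 (exact p = 0.6, adjusted p = 0.675) and for Nr1d1 it was -0.13 (exact p = 0.825, adjusted p = 0.825). Nr1d2 had r = -0.48 (exact p = 0.192, adjusted p = 0.389), and 0.13 without wt/wt replicate 1. Npas2 (r = 0.47), Per2 (0.49) and Per3 (0.36) had exact permutation p-values of 0.216, 0.385 and 0.426 and adjusted p-values of 0.389, 0.548 and 0.548. Spearman's rho was 0.35, -0.40, -0.08, -0.42, 0.62, 0.17 and 0.35 for Cry2, Cry1, Nr1d1, Nr1d2, Npas2, Per2 and Per3, with exact permutation p of 0.386, 0.365, 0.862, 0.302, 0.0972, 0.709 and 0.356. Their adjusted p ran from 0.438 to 0.862.

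**Figure D4:**
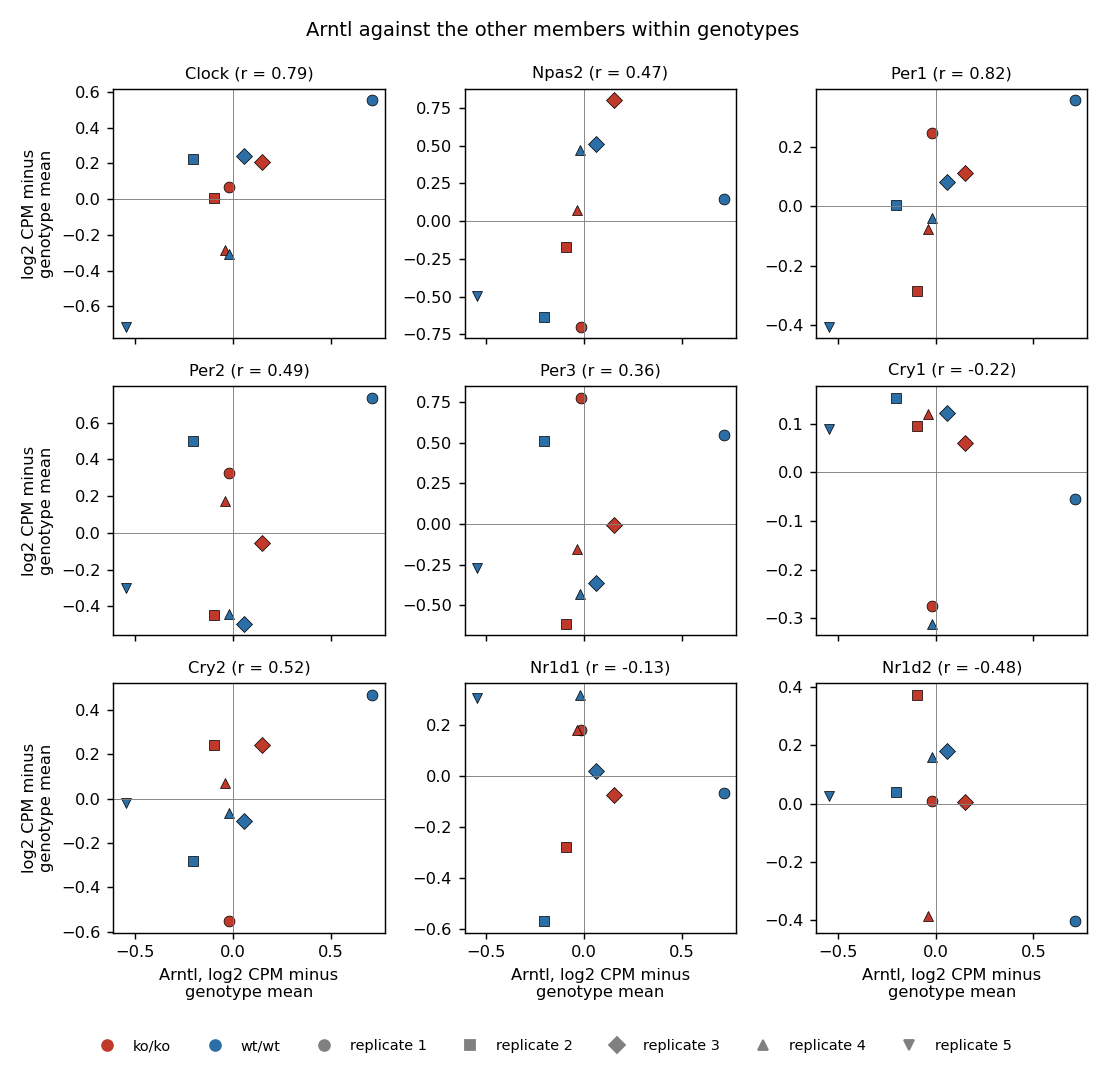
Log2 CPM minus the genotype mean of Arntl (horizontal) against each of the other 9 members (vertical), with 1 point per library in red for ko/ko and blue for wt/wt and a marker shape per replicate number. Per1 (r = 0.82) and Clock (r = 0.79) run upward with Arntl, with wt/wt replicate 1 at the upper right and wt/wt replicate 5 at the lower left.

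Among 11805 other genes with a mean of at least 5 CPM, Per1 ranked 84 and Clock 136 by likeness to Arntl, measured as Pearson r over the 9 libraries after subtracting genotype means. The 5 genes most like Arntl were Efhd2 (r = 0.95), D330041H03Rik (0.94), Dusp5 (0.93), Hnrnpul2 (0.93) and Carmil1 (0.93). Those most opposite were Gtf2f2 (-0.97), Nap1l4 (-0.96), Wdr45b (-0.96), Memo1 (-0.95) and Oasl2 (-0.94). These likenesses describe 9 libraries that differ in depth and in levels of cell type markers, and the part of either was not tested.

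The other genes of the pathway were counted in 3 lists of 43 genes in all, each of which was tested. By edgeR's test 0 of the 43 were called higher and 0 lower, while 9 were higher and 3 lower at an unadjusted p under 0.05, where 8.86% of all tested genes were higher and 6.42% lower. DESeq2 called 3 higher and 0 lower, against 2.53% and 1.11% of all genes. With voom and quality weights 10 passed as higher and 0 as lower, against 6.6% and 3.17%. The median log2 fold change of the lists together was 0.01, with 23 positive and 20 negative. Hlf, Csnk2a2, Csnk2a1, Sirt1, Sfpq and Rora were the 6 higher in ko/ko with no overlap between genotypes, and Csnk1a1 and Cipc the 2 lower, against 3.51% of all tested genes higher without overlap and 2.74% lower. Of these, Rora, Csnk1a1 and Cipc were named after their values were seen.

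Kinases and turnover factors mark PER and CRY proteins for degradation or act on other clock proteins. Of 16 tested, 9 were positive and 7 negative, with a median of 0.01. Csnk2a2, a catalytic subunit of casein kinase 2, averaged 21.3 ± 4.54 CPM (SD, n = 4) in ko/ko and 10.5 ± 3.33 CPM (SD, n = 5) in wt/wt, a log2 fold change of 1.03 (SE 0.24). Csnk2a1, the other catalytic subunit, had 0.45 (SE 0.16), and Gsk3b, a kinase of clock proteins, 0.46 (SE 0.17).

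Corepressors and coactivators act with the loop on chromatin. Of 13 tested, 8 were positive and 5 negative, with a median of 0.13. Sirt1, a deacetylase, averaged 76.4 ± 13.6 CPM (SD, n = 4) in ko/ko and 41.9 ± 12.2 CPM (SD, n = 5) in wt/wt, a log2 fold change of 0.87 (SE 0.22). Sfpq, a PER-associated RNA-binding protein, had 0.57 (SE 0.18), and Ncor1, the corepressor recruited by REV-ERB receptors, 0.45 (SE 0.17).

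Second loop and output factors include nuclear receptors that compete with REV-ERB, and the D-box factors. Of 14 tested, 6 were positive and 8 negative, with a median of -0.07. Hlf, an activator at D-boxes, averaged 33.3 ± 4.99 CPM (SD, n = 4) in ko/ko and 23.3 ± 1.27 CPM (SD, n = 5) in wt/wt, a log2 fold change of 0.51 (SE 0.14). Ciart, a repressor of the ARNTL and CLOCK pair, had -0.76 (SE 0.27). For Csnk2a2, Csnk2a1, Gsk3b, Sirt1, Sfpq, Ncor1, Hlf and Ciart, edgeR adjusted p-values ran from 0.135 to 0.251. They were 0.326 for Rora, 0.423 for Csnk1a1 and 0.264 for Cipc.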

How the data were processed

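The authors deposited 1 table of raw read counts per gene, a column per library, with exon length and coordinates. The submitters' processing notes name GSNAP, featureCounts 1.6.2 and mm10, and the deposited table's name Ensembl release 87. How strand, multi-mapped reads and duplicates were handled is not given in the sources used here. Of 49763 rows, 92 spike-in rows were left out; 49326 of 49671 gene rows had a symbol in the identifier table.

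Genotype came from the labels; replicate numbers are accession order only. Each sample has its own identifier in its title, but the labels do not call them separate animals, so p-values measure the spread between these samples, which may be technical. Every pair of libraries differed by more than sampling noise (chi-square over its degrees of freedom was 23.1 or more).

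Differences were tested on the counts in R 4.3.3 and edgeR 4.0.16, with filterByExpr (18435 genes kept, 31236 removed), TMM, robust glmQLFit, two-sided glmQLFTest, Benjamini-Hochberg adjustment, threshold 0.05. SE is |log2 fold change| divided by the root of F. The procedure was tested on simulated data. CPM use TMM-adjusted library sizes, log2 CPM a prior count of 0.5. By library totals, 0.0431 to 0.0641 CPM is the worth of 1 count, a limit that covers counting error only. Centred relations of all libraries used all 2880 arrangements within genotypes. Centred relations with libraries left out used all arrangements within genotypes of the remaining ones, which are fewer. Uncentred relations were permuted across genotypes.

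Other settings were RLE or no factors, no filter or at least 1 CPM in every library of a genotype, DESeq2 1.42.0, limma 3.58.1 voom with quality weights, robust=FALSE, a loess (span 0.3) on exon length removed, a threshold of 0.10, a prior count of 2, uncentred relations and each library left out. Leaving out the 3 libraries richest in Gm10800-group reads was added after seeing the data.

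Named genes are the members, Flg, genes overlapping a member, the 3 genes of smallest p in each pathway list (1 of them is not reported here), the 5 genes most like and most opposite to Arntl, and cell type markers. Rora, Csnk1a1 and Cipc were named after their values were seen, and Gm10800 stands for the read group of 1 added setting. Members and lists were chosen with earlier results of these data known.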

Additional observations from a re-analysis of the deposited data

Results flagged for a closer look

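In 20 groups of libraries, 10 members in each genotype, 2 held a single library far from the others, and about 1 in 20 groups does so by chance (1 expected). Cry1 was lowest in ko/ko replicate 1 at 41.9 CPM, while ko/ko replicates 2 to 4 ranged from 52.8 to 55.1 CPM. Nr1d2 was lowest in wt/wt replicate 1 at 75.2 CPM, while wt/wt replicates 2 to 5 ranged from 101 to 113 CPM. In ko/ko replicate 1 Cry2 and Npas2 were also lowest and Per1, Per2 and Per3 highest of the ko/ko libraries. In wt/wt replicate 1 Arntl, Clock, Per1, Per2, Per3 and Cry2 were the highest of the wt/wt libraries.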

How the results depend on the processing

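No paired analysis was run, since the labels pair no ko/ko sample with a wt/wt sample. The 0 members called became 2 with DESeq2 and 4 with voom with quality weights, and the 0 pathway list genes became 3 and 10; both counts were 0 in each of the other settings, leaving out 1 library included. Over all genes, the 1 call became 630 with DESeq2, 1802 with voom, 28 with no filter, 2 with the stricter filter, 4 with library totals only, 0 with the length trend removed, 31 at a threshold of 0.10, 7 with the 3 most Gm10800-rich libraries left out, and 0 to 12 with 1 library left out. Library totals moved the median log2 fold change of all genes from -0.03 to 0.08.

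Of the members, 9 of 10 kept their direction in 18 settings. Per3 was -0.020 without ko/ko replicate 1. Voom passed Arntl (0.86, adjusted p = 0.0142), Clock (0.91, adjusted p = 0.0246), Cry1 (-0.50, adjusted p = 0.0358) and Cry2 (-0.74, adjusted p = 0.0121), and DESeq2 passed Cry1 (-0.58, adjusted p = 0.0127) and Cry2 (-0.90, adjusted p = 0.00416). Over all settings the highest adjusted p was 0.388 for Arntl, 0.393 for Clock, 0.326 for Cry1 and 0.294 for Cry2. Leaving out 1 library gave log2 fold changes of 0.56 to 0.91 for Arntl, 0.59 to 0.89 for Clock and 0.23 to 0.76 for Npas2. For the Per genes it gave 0.35 to 0.55 for Per1, -0.80 to -0.46 for Per2 and -0.020 to 0.48 for Per3. The ranges were -0.65 to -0.50 for Cry1, -0.98 to -0.75 for Cry2, -0.29 to -0.09 for Nr1d1 and 0.11 to 0.36 for Nr1d2. With the 3 most Gm10800-rich libraries left out, Cry2 had -0.56, Npas2 0.87, Nr1d1 -0.39 and Per3 0.086. Voom gave Per2 -0.33, Nr1d1 -0.29 and Nr1d2 0.072, library totals Nr1d1 -0.047, and removing the length trend Nr1d1 -0.34 and Per3 0.097.

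Relations of Arntl with Clock and Per1 passed without subtracting genotype means (r = 0.91 for both, adjusted p = 0.00299) and with library totals only (0.85 for both, adjusted p = 0.0422), and reached an adjusted p of 0.668 and 0.395 elsewhere. Uncentred relations include the difference between genotypes, and their permutation ran across genotypes. Members were chosen with that difference known, so nothing is read from the uncentred p-values. Without subtracting means, r was -0.19 for Per2, -0.46 for Cry2 and 0.063 for Nr1d2. Cry1 had 0.050 with library totals only and 0.14 without the 2 farthest libraries, where Npas2 had -0.013. With 1 library left out r ran from 0.61 to 0.90 for Clock, 0.33 to 0.71 for Npas2, 0.68 to 0.91 for Per1, -0.14 to 0.67 for Per2, -0.032 to 0.51 for Per3, -0.33 to -0.12 for Cry1, 0.00 to 0.75 for Cry2, -0.52 to 0.20 for Nr1d1 and -0.65 to 0.13 for Nr1d2. The causes were not tested.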
